A study of Drosophila melanogaster with 43 samples.

Results

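S2 cells carrying Orb2B were set against background S2 cells across the whole transcriptome. The values are RPKM, reads per kilobase of transcript normalised to the mapped reads, as deposited for each gene. The genes described are the 7072 of 13792 listed whose RPKM averaged at least 1 over the 4 libraries. Of the 6720 genes below that level, 2301 were listed at 0 in all 4 libraries. S2 is an established Drosophila melanogaster line from embryos, with features of blood cells. The first group, 2 libraries, is S2 cells labelled as overexpressing Orb2B. They had been transfected and were given 250 µM CuSO4 and 300 µg/ml hygromycin B. The second group, 2 libraries, is S2 cells that the series' design text calls untransfected, given 250 µM CuSO4 and no hygromycin. Both groups grew at 27 °C in Schneider's medium with fetal calf serum and antibiotics. Orb2B, transfection and hygromycin differ together between the groups and cannot be told apart. The sources used here give neither the promoter nor the number of clones behind the Orb2B cells. Nor do they call the 2 libraries of a group separate cultures, and the p-values then reflect how far these libraries vary, which may be technical only. The series holds 43 samples in all, and its libraries of crosslinked RNA and of fly heads are not analysed here.

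Orb2 is a Drosophila CPEB protein, as is its relative Orb. CPEB proteins bind uridine-rich elements in the untranslated tails of mRNAs and, with partner proteins, repress or activate their translation through the length of the poly(A) tail. Orb2 is known for its part in long-term memory in the fly brain, and its A and B forms share the RNA-binding region. Copper ions induce metallothioneins, small proteins that bind metals, and hygromycin B blocks protein synthesis in cells that lack a resistance gene.

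Orb2B replicates 1 and 2 had 6670 and 6868 genes at 1 RPKM or more, and background replicates 1 and 2 had 7129 and 7093. The number of reads behind the RPKM is unknown. The spacing of the lowest values, where 1 read sets the step, put the Orb2B libraries at 0.982 and 1.66 times the depth of background replicate 1, and background replicate 2 at 0.783 times. Library scale was set by median-of-ratios factors, taken against each gene's geometric mean, and all levels below are such scaled RPKM, always given for replicate 1 and then replicate 2 of a group. Across genes, the log2 levels of the Orb2B libraries had r = 0.990 and those of the background libraries r = 0.980, against 0.878 to 0.913 between groups. Levels over 2-fold apart were seen between the Orb2B libraries at 1.88% of genes, between the background libraries at 1.89%, and between libraries of different groups at 17.6% to 25.3%.

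The orb2 transcript, which checks the labels, stood at 2687 and 2744 scaled RPKM in Orb2B cells against 7.75 and 8.03 in background cells. The fold change of a gene is that of Orb2B over background cells, fitted with limma on log2(scaled RPKM + 0.5). It is written log2FC ± its standard error, and it understates the change of genes with low levels. For orb2 the log2FC was 8.34 ± 0.16. A gene is said to have risen or fallen where its two-sided limma p, adjusted over all 7072 genes by Benjamini and Hochberg's method, was under 0.05. By this rule 2611 genes (36.9%) differed, of which 1201 (17.0%) rose and 1410 (19.9%) fell, while 4461 did not pass. The falls were the larger changes, with a median log2FC of -1.18 against 0.93 for the rises. A log2FC of -3 or less was seen in 106 genes that fell, and one of 3 or more in 24 that rose. With Orb2B replicate 1 left out, 522 genes were higher and 826 lower. With Orb2B replicate 2 left out, 707 were higher and 1001 lower. In such fits the lone library of a group is assumed to vary like the other group.

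**Figure D1:**
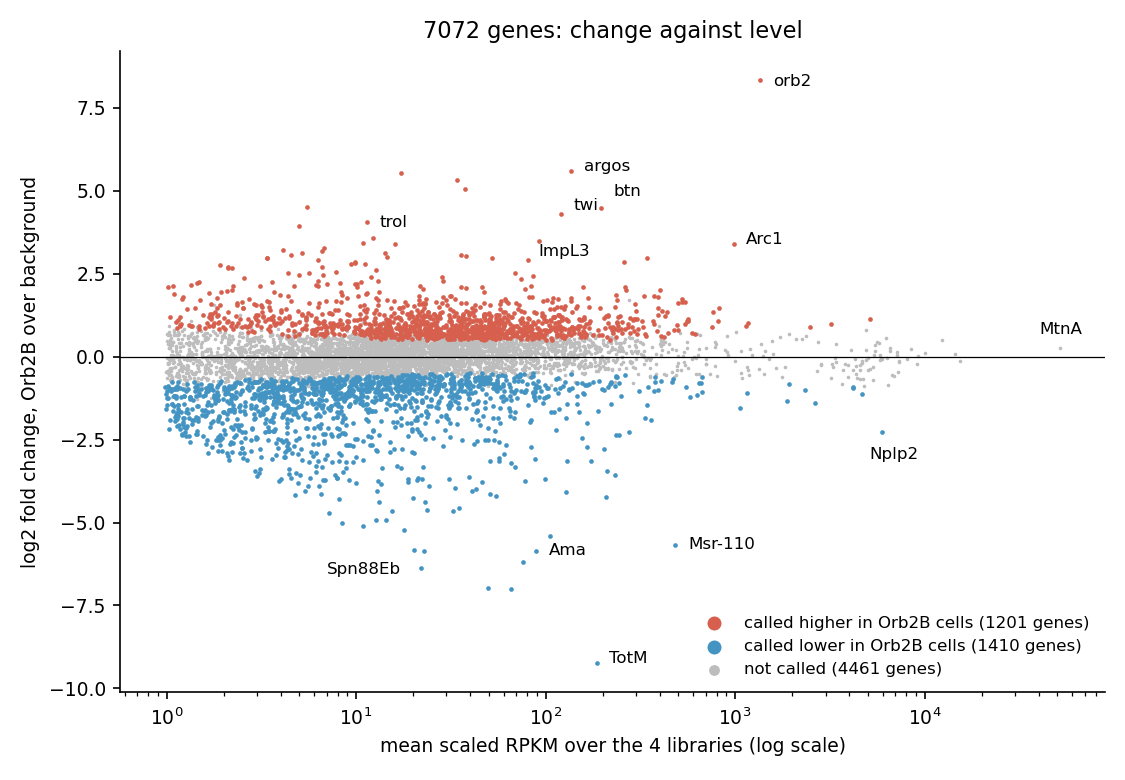
Log2FC of Orb2B over background cells (vertical axis) against the mean scaled RPKM over the 4 libraries (horizontal log axis), 1 point per gene. Of 7072 genes, 1201 were called higher and 1410 lower. The gene orb2 is at the top, TotM, a stress-induced gene, at the bottom, and MtnA, a metallothionein gene, has the highest level.

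Low genes fell more often and high genes rose more often. Among the 1510 genes averaging under 5 scaled RPKM, 9.87% rose and 30.9% fell, and the median log2FC was -0.31. From 5 to 20 scaled RPKM, 12.0% of 2460 genes rose and 20.1% fell. From 20 to 100 scaled RPKM, 24.1% of 2311 genes rose and 15.4% fell. Above 100 scaled RPKM, 25.5% of 791 genes rose and 11.8% fell, and the median log2FC was 0.20.

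The Orb2B libraries were alike in rank but not equal in extent. Replicate 2 lay nearer to the background mean than replicate 1 did in 1098 of 1410 genes that fell (77.9%) and in 940 of 1201 that rose (78.3%). Among the 106 genes with the lowest log2FC this held for 100. In those genes replicate 2 lay a median of 4.70% of the way from replicate 1 to the background mean, with quartiles of 1.84% and 9.62%. On the log2(scaled RPKM + 0.5) scale the Orb2B libraries were furthest apart at the gene HP6. It had 0.789 and 25.3 scaled RPKM in Orb2B cells against 94.1 and 64.5 in background cells. Next came Obp99c, an odorant-binding protein gene, with 0.563 and 20.2 scaled RPKM in Orb2B cells against 239 and 165 in background cells. Then came CG1503, with 0.0529 and 7.31 scaled RPKM in Orb2B cells against 44.6 and 40.7 in background cells. In each of these genes Orb2B replicate 2 lay above replicate 1 and below both background libraries, and all 3 fell. The call of HP6 ended without background replicate 1 (-3.51) or without background replicate 2 (-4.04), and that of CG1503 without background replicate 1 (-4.33) or without background replicate 2 (-4.44) (log2FC in brackets). The log2FC of HP6 was -1.59 without Orb2B replicate 1 and -5.91 without Orb2B replicate 2, that of Obp99c was -3.25 without Orb2B replicate 1, and that of CG1503 was -2.45 without Orb2B replicate 1.

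**Figure D2:**
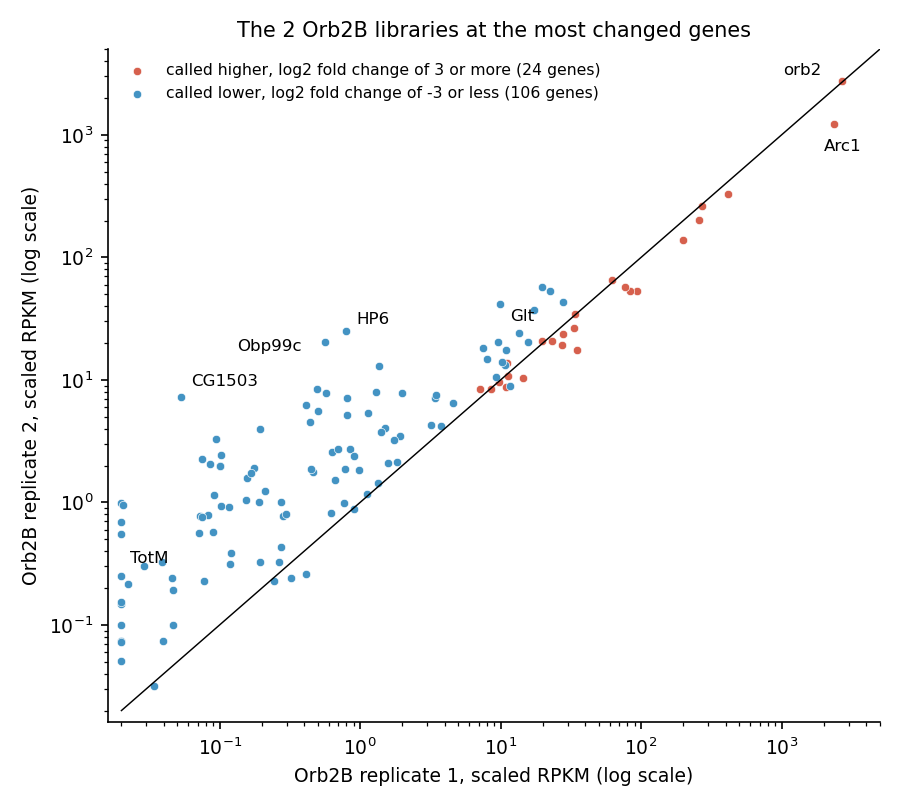
Scaled RPKM of Orb2B replicate 2 (vertical log axis) against Orb2B replicate 1 (horizontal log axis) for the 106 genes with a log2FC of -3 or less and the 24 with 3 or more. Values under 0.02 are drawn at 0.02, and the line marks equal values. Most genes that fell lie above the line, with HP6, Obp99c and CG1503 among those furthest from it, while orb2 lies on it.

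Several defining markers of blood cells were lower in Orb2B cells, while others rose or did not pass. Of 7 tested markers of plasmatocytes, the macrophage-like fly blood cells, 4 fell (57.1%) and 1 rose (14.3%), against 19.9% and 17.0% of all genes. Their summed level was 187 and 223 in Orb2B cells and 271 and 279.9 in background cells. In a cell line, fewer cells that express a gene and less of its RNA per cell cannot be told apart. The scavenger receptor gene Sr-CI had 0.193 and 0.325 scaled RPKM in Orb2B cells against 11.8 and 13.7 in background cells (log2FC -4.13 ± 0.23). The phagocytosis receptor gene eater had 0 and 0.242 scaled RPKM in Orb2B cells against 4.1 and 3.96 in background cells (log2FC -2.90 ± 0.29). Hml, which codes for a clotting protein and is used to mark these cells, had 0.0111 and 0.154 scaled RPKM in Orb2B cells against 10.4 and 5.06 in background cells (log2FC -3.75 ± 0.36). In these 3 genes the Orb2B libraries were all under 0.5 and the background libraries above 3. The other tested plasmatocyte markers differed less between the groups. The GATA factor srp, which specifies the blood lineage, had 69.4 and 68.3 scaled RPKM in Orb2B cells against 117 and 112 in background cells (log2FC -0.73 ± 0.16). The apoptotic cell receptor crq had 25.3 and 24.8 scaled RPKM in Orb2B cells against 32.5 and 31.9 in background cells and did not pass. Peroxidasin, Pxn, had 15.6 and 64.1 scaled RPKM in Orb2B cells against 50 and 69.6 in background cells, so that only Orb2B replicate 1 stood apart, and it did not pass. The rise was that of Ppn, which codes for the matrix protein papilin, with 76.3 and 65.2 scaled RPKM in Orb2B cells against 45.6 and 43.2 in background cells (log2FC 0.66 ± 0.17). Among crystal cell markers 1 of 4 reached the minimum, the prophenoloxidase gene proPO-A1, with 0 and 0.0741 scaled RPKM in Orb2B cells against 18 and 15.5 in background cells (log2FC -5.01 ± 0.23). Of 3 tested lamellocyte markers 0 rose and 2 fell. The lamellocyte prophenoloxidase gene CG42640 (PPO3) had 5.25 and 7.1 scaled RPKM in Orb2B cells against 23.5 and 26.9 in background cells (log2FC -1.96 ± 0.21). Of 3 tested markers of blood cell progenitors 1 rose and 2 fell, and the summed levels of the 4 on the list overlapped, at 49.2 and 41.8 in Orb2B cells and 46.1 and 50.1 in background cells. The rise was that of the cytokine receptor gene dome (log2FC 0.65 ± 0.18). The call of srp ended without Orb2B replicate 1 (-0.73) or without Orb2B replicate 2 (-0.71), that of Ppn without Orb2B replicate 1 (0.56) or without Orb2B replicate 2 (0.78), and that of dome without Orb2B replicate 1 (0.58) or without Orb2B replicate 2 (0.74) (log2FC in brackets). Pxn passed, as lower in Orb2B cells, without Orb2B replicate 2 (log2FC -1.87). The plasmatocyte markers list had 0 higher and 3 lower without Orb2B replicate 1 and 0 higher and 4 lower without Orb2B replicate 2, the lamellocyte markers list had 0 higher and 1 lower without Orb2B replicate 2, and the blood cell progenitor markers list had 0 higher and 2 lower without Orb2B replicate 1 and 0 higher and 1 lower without Orb2B replicate 2.

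Markers of other tissues, those of epithelium excepted, were mostly near 0 in both groups. Of 9 neuron markers 7 were below the minimum, the highest of them n-syb at 0.207 and 0.198 scaled RPKM in Orb2B cells against 0.118 and 0.134 in background cells. The active-zone gene brp rose, with 5.69 and 3.4 scaled RPKM in Orb2B cells against 1.86 and 0.63 in background cells (log2FC 1.59 ± 0.39). The neuronal RNA-binding protein gene elav had 4.76 and 4.72 scaled RPKM in Orb2B cells against 6.17 and 6.16 in background cells and did not pass. The summed level was 10.7 and 8.46 in Orb2B cells and 8.31 and 6.94 in background cells for neuron markers, 9.48 and 9.52 in Orb2B cells and 15.4 and 12.7 in background cells for glia markers, and 2.5 and 1.52 in Orb2B cells and 1.85 and 1.59 in background cells for muscle markers. The summed level of epithelium markers was 23.3 and 22.6 in Orb2B cells and 10.9 and 14.4 in background cells. Of 5 such markers 2 were tested, of which 1 rose (log2FC 1.05) and 0 fell. For ovarian soma markers the sums were 4.63 and 5.57 in Orb2B cells and 9.19 and 13.9 in background cells. Of 3, 1 was tested and fell (log2FC -1.09, and -0.95 without Orb2B replicate 1). No fat body or tracheal marker reached the minimum. Among germ cell markers the piRNA-binding protein gene aub fell, with 0.0223 and 0.214 scaled RPKM in Orb2B cells against 4.25 and 7.96 in background cells (log2FC -3.38 ± 0.34). The germline transcription factor gene ovo fell too, with 3.38 and 3.77 scaled RPKM in Orb2B cells against 7.58 and 11.8 in background cells (log2FC -1.29 ± 0.25). The defining germ cell genes vas, nos and osk stayed below the minimum in both groups, osk reaching 0.273 and 0.351 scaled RPKM in Orb2B cells against 0.431 and 0.539 in background cells. The part of these markers in other results was not tested. The log2FC of brp was 1.04 without background replicate 2.

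**Figure D3:**
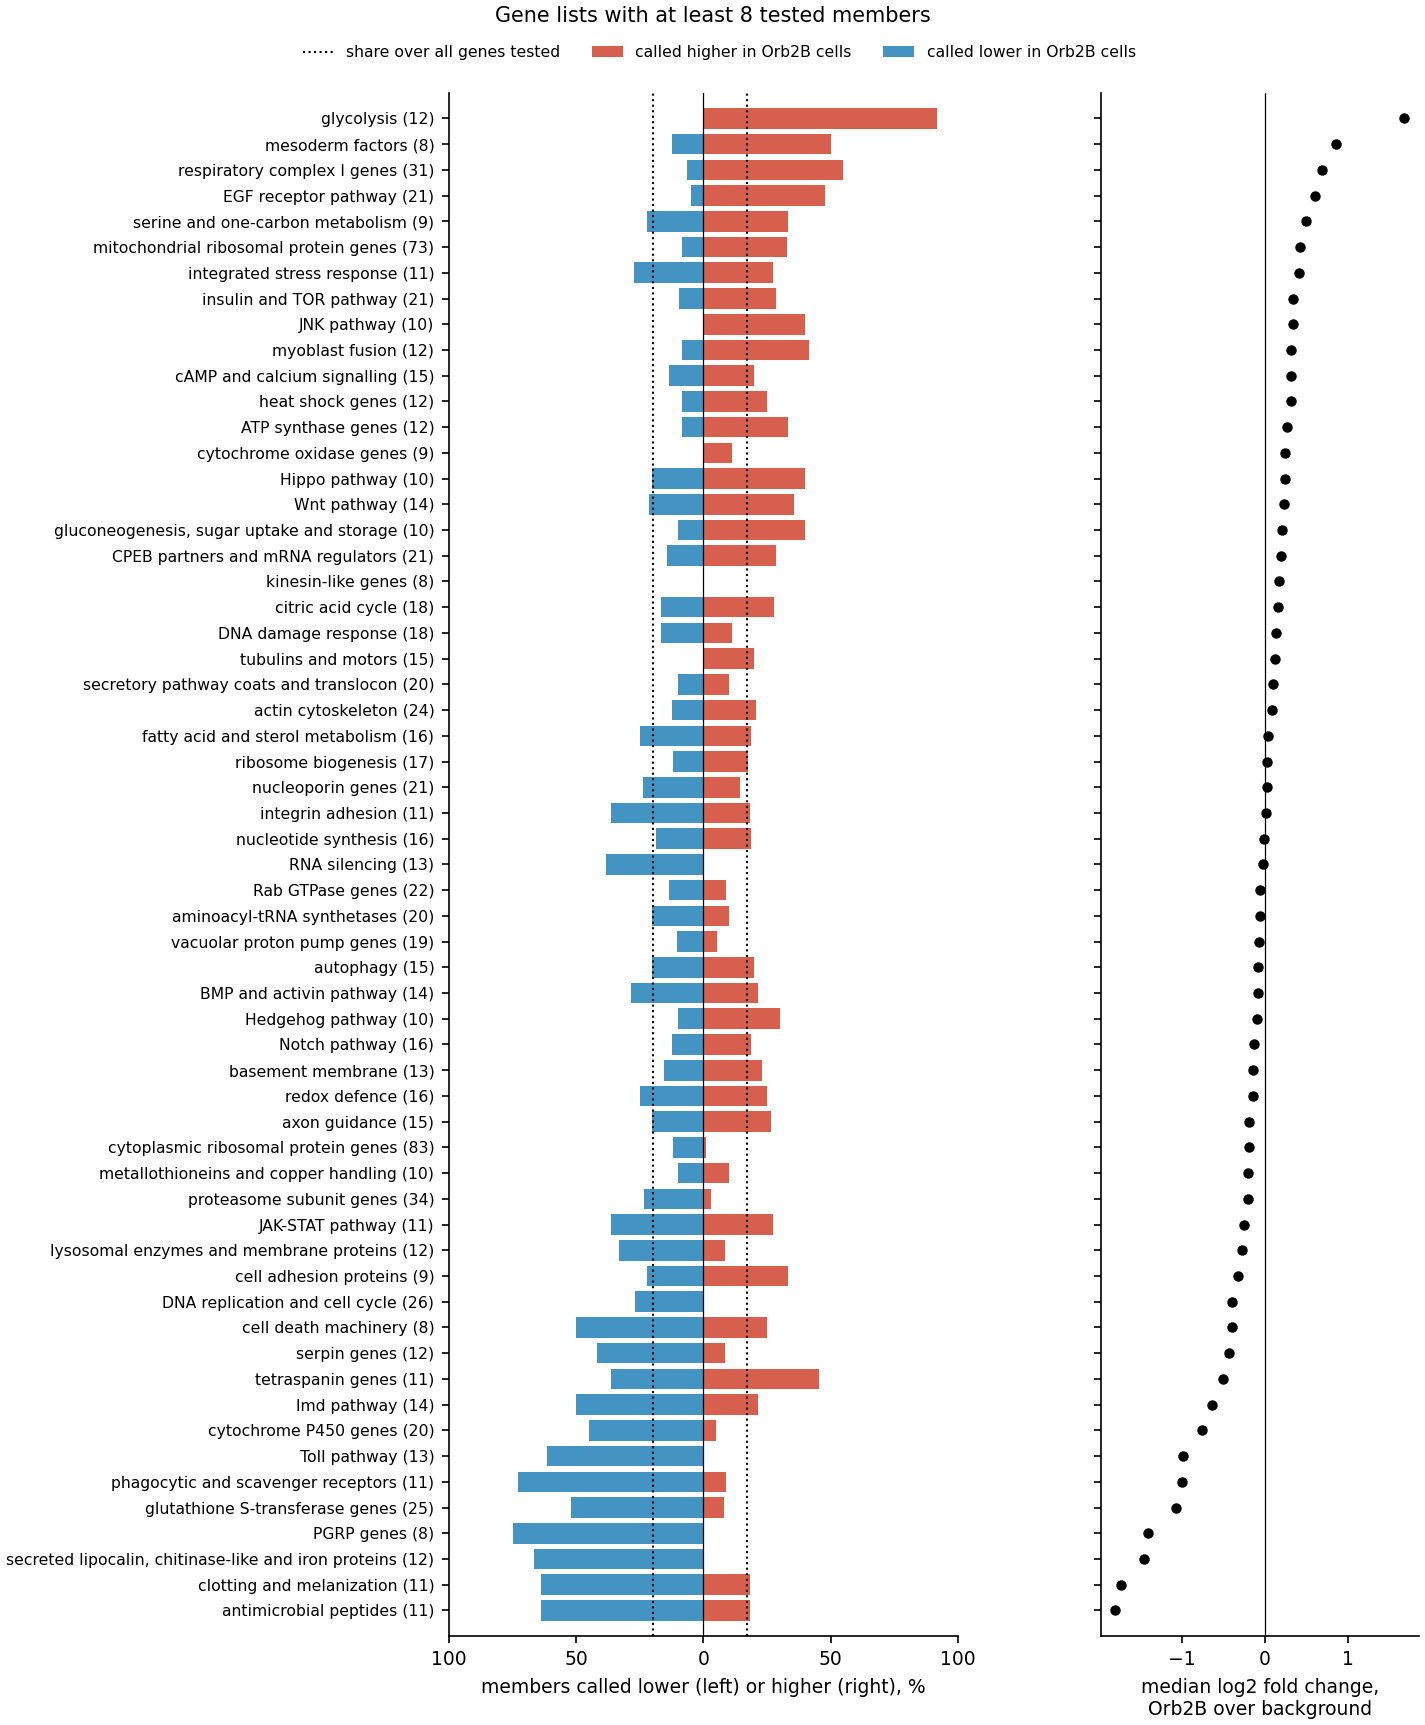
Share of tested members called lower (left, blue) or higher (right, red) in Orb2B cells, for each gene list or symbol family with at least 8 tested members (number in brackets), and the median log2FC of the list (right panel), by which the lists are ordered. Dotted lines mark the shares over all genes tested, 19.9% lower and 17.0% higher. Glycolysis stands at the top with 11 of 12 members higher, and antimicrobial peptides at the bottom with 7 of 11 lower.

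Genes of epidermal growth factor receptor (EGFR) signalling were higher in Orb2B cells. This pathway passes growth and fate signals from secreted ligands through a receptor kinase, Ras and MAP kinase to the nucleus, where it also switches on its own inhibitors. Of 21 tested genes 10 rose and 1 fell, against 17.0% and 19.9% of all genes, with a median log2FC of 0.60. The secreted inhibitor argos (now aos, chromosome 3L 16463486 to 16476750 in build dm3) had 271 and 264 scaled RPKM in Orb2B cells against 4.21 and 6.13 in background cells, with an adjusted p of 1.1e-05 from limma. The membrane inhibitor kek1 had 113 and 73.9 scaled RPKM in Orb2B cells against 12.5 and 10.2 in background cells (log2FC 2.96 ± 0.24). The intracellular inhibitor sty, Sprouty, was the most abundant member named here, with 584 and 634 scaled RPKM in Orb2B cells against 162 and 187 in background cells (log2FC 1.80 ± 0.19). In these inhibitors both Orb2B libraries lay above both background libraries, as they did in 36.5% of all genes. Upstream, the protease gene rho, which frees the ligands, had 13.6 and 13.9 scaled RPKM in Orb2B cells against 1.94 and 1.98 in background cells (log2FC 2.54 ± 0.20). The ligand carrier S rose (log2FC 1.30 ± 0.22), as did the ligand genes spi (log2FC 0.60 ± 0.20) and Krn (log2FC 0.90 ± 0.21). A further ligand gene, grk, had 2.64 and 3.35 scaled RPKM in Orb2B cells against 9.25 and 8.51 in background cells and fell (log2FC -1.43 ± 0.22). The receptor gene Egfr was listed at or near 0, at 0.0267 and 0.0213 scaled RPKM in Orb2B cells against 0.0267 and 0 in background cells. Within the cell, the phosphatase csw (log2FC 1.30 ± 0.21) and the ETS repressor aop (log2FC 1.23 ± 0.16) rose. The core kinase genes did not pass, rl, the MAP kinase, having 1.8 and 2.04 scaled RPKM in Orb2B cells against 0.769 and 1.15 in background cells. The ETS activator pnt had 133 and 138 scaled RPKM in Orb2B cells against 116 and 114 in background cells and did not pass. The call of spi ended without Orb2B replicate 1 (0.45), without Orb2B replicate 2 (0.77) or without background replicate 1 (0.47), and that of Krn without Orb2B replicate 1 (0.88) or without Orb2B replicate 2 (0.95) (log2FC in brackets). rl passed, as higher in Orb2B cells, without background replicate 2 (log2FC 0.91). At an adjusted p under 0.01, 7 genes of the EGFR list were higher and 1 lower. The median log2FC of the list was 0.61 without Orb2B replicate 1 and 0.68 without Orb2B replicate 2. It was 0.62 without background replicate 1 and 0.69 without background replicate 2.

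Fibroblast growth factor and PDGF/VEGF-like genes changed at the level of ligands and of one receptor. The FGF receptor of mesoderm, htl, had 8.49 and 8.44 scaled RPKM in Orb2B cells against 0.544 and 0.601 in background cells (log2FC 3.06 ± 0.22). Its ligand gene pyr rose with it, having 10.1 and 9.12 scaled RPKM in Orb2B cells against 3.39 and 3.83 in background cells (log2FC 1.30 ± 0.20). The receptor Pvr, which acts in blood cell survival and migration, had 158 and 182 scaled RPKM in Orb2B cells against 147 and 168 in background cells and did not pass. Of its ligand genes, Pvf3 had 18.7 and 16.9 scaled RPKM in Orb2B cells against 2.75 and 4.07 in background cells (log2FC 2.25 ± 0.23). Pvf2, the most abundant of the ligands, had 319.9 and 284 scaled RPKM in Orb2B cells against 115 and 139.9 in background cells (log2FC 1.24 ± 0.19). Pvf1 went the other way, with 35.5 and 32.5 scaled RPKM in Orb2B cells against 53.2 and 56.7 in background cells (log2FC -0.68 ± 0.17). The call of Pvf1 ended without Orb2B replicate 1 (-0.73) or without Orb2B replicate 2 (-0.61) (log2FC in brackets).

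**Figure D4:**
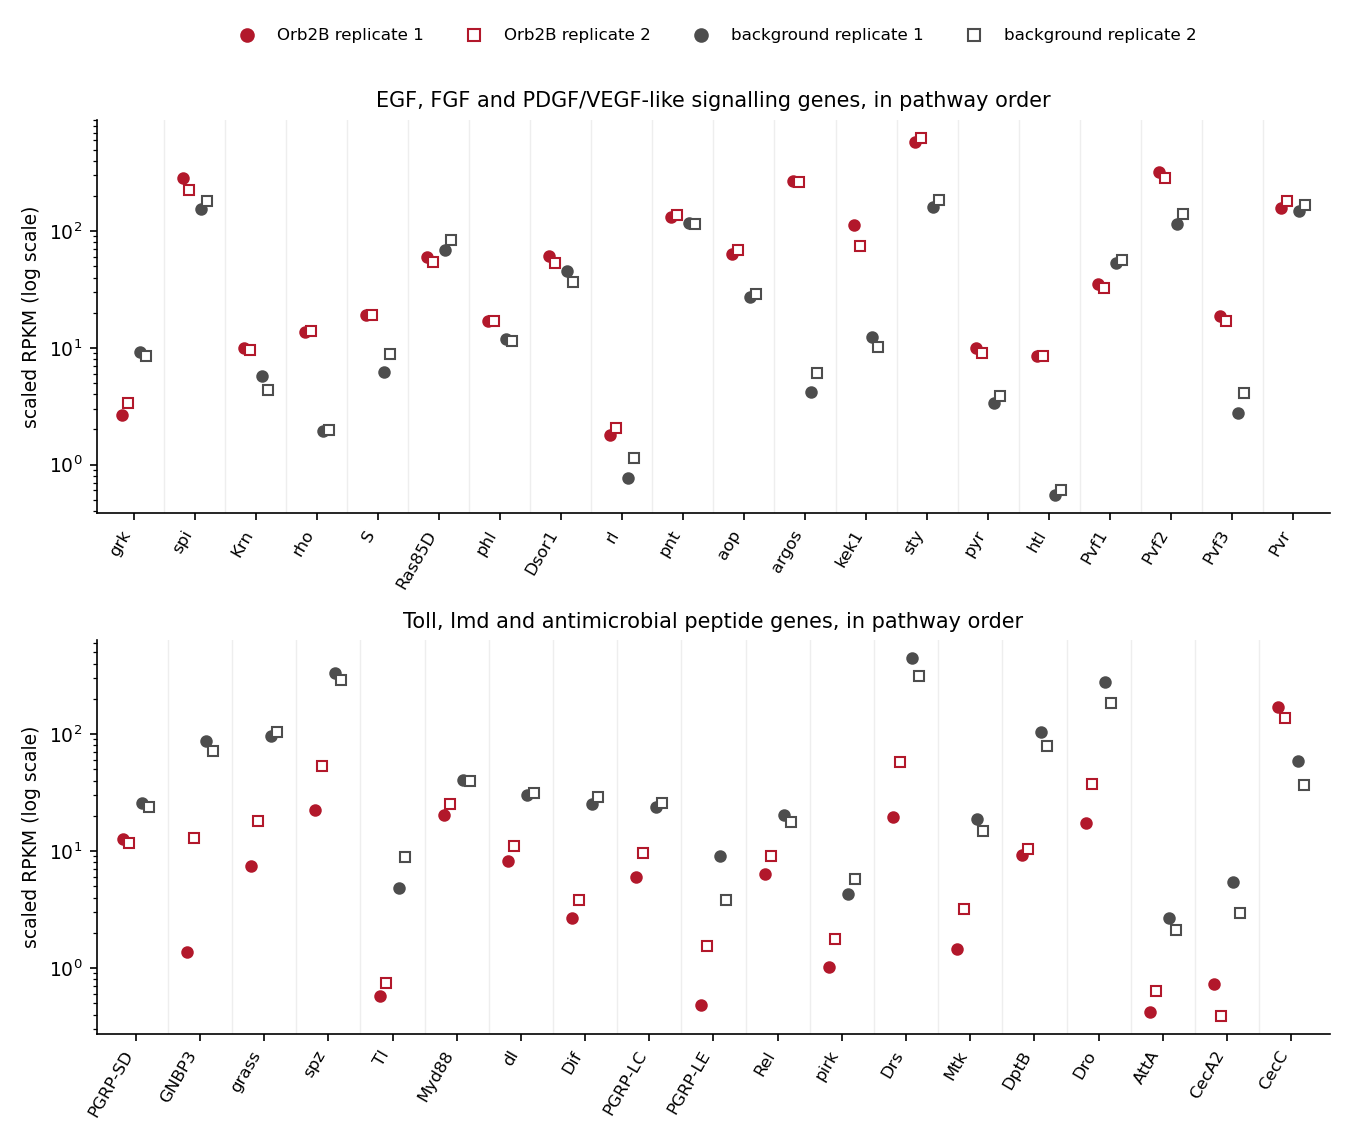
Scaled RPKM (vertical log axes) in each library for genes of growth factor signalling (upper panel) and of immune signalling and its effectors (lower panel). Red symbols are Orb2B and grey symbols background libraries, filled circles for replicate 1 and open squares for replicate 2. Above, argos, kek1, sty and htl are higher in both Orb2B libraries and grk and Pvf1 lower. Below, every gene but CecC is lower in both Orb2B libraries, and Orb2B replicate 2 is the nearer to background in most.

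The insulin and TOR pathway, which couples nutrients to growth, had 6 rises and 2 falls among 21 genes. These were 28.6% and 9.52%, against 17.0% and 19.9% of all genes. The insulin-like peptide gene Ilp6 had 472 and 367 scaled RPKM in Orb2B cells against 147 and 73.8 in background cells (log2FC 1.99 ± 0.32). ImpL2, whose secreted product binds insulin-like peptides and blocks them, had 700.0 and 517 scaled RPKM in Orb2B cells against 94.6 and 61.7 in background cells (log2FC 2.97 ± 0.26). The TOR inhibitors scyl (log2FC 1.84 ± 0.20) and chrb (log2FC 1.73 ± 0.24) rose, as did the translation repressor Thor (log2FC 1.04 ± 0.33) and the kinase S6k (log2FC 1.24 ± 0.18). The GTPase gene Rheb, which activates TOR, had 21.9 and 21 scaled RPKM in Orb2B cells against 43.2 and 41.3 in background cells and fell (log2FC -0.96 ± 0.17). The lipid kinase gene Pi3K92E fell as well (log2FC -1.09 ± 0.24). The rises thus held activators and inhibitors, and both falls were activators. The call of Thor ended without Orb2B replicate 1 (0.70) or without background replicate 2 (0.59) (log2FC in brackets).

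Calcium and cyclic AMP signalling, which includes genes known from fly memory, had 3 rises and 2 falls among 15. These shares, 20% and 13.3%, were near the 17.0% and 19.9% of all genes. Pka-C3, which codes for a protein kinase A-like kinase, had 76.7 and 57.8 scaled RPKM in Orb2B cells against 1.34 and 1.05 in background cells, a log2FC of 5.31 ± 0.22. The cyclic AMP phosphodiesterase gene dnc, a classical memory gene, had 36.1 and 34 scaled RPKM in Orb2B cells against 11.7 and 11 in background cells (log2FC 1.58 ± 0.17). The stimulatory G protein gene G-salpha60A rose (log2FC 1.21 ± 0.18). The phosphodiesterase gene Pde8 (log2FC -0.99 ± 0.17) and the exchange factor gene Epac (log2FC -1.51 ± 0.25) fell. All 5 calls were kept with any 1 library left out.

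Secreted signals of development moved gene by gene. In the BMP and activin list 3 of 14 rose (21.4%) and 4 fell (28.6%), against 17.0% and 19.9% of all genes. The BMP antagonist sog had 27.9 and 23.8 scaled RPKM in Orb2B cells against 2.36 and 2.73 in background cells (log2FC 3.11 ± 0.20). The activin-like ligand gene daw had 0.258 and 0.45 scaled RPKM in Orb2B cells against 2.01 and 1.54 in background cells (log2FC -1.42 ± 0.28), and its relative myoglianin rose (log2FC 1.33 ± 0.24). In the Wnt list 5 of 14 rose and 3 fell. The ligand gene Wnt5 had 34 and 28.2 scaled RPKM in Orb2B cells against 11.1 and 15.1 in background cells (log2FC 1.23 ± 0.21), and the intracellular transducer dsh rose (log2FC 1.07 ± 0.18). The carrier wls, which brings Wnt proteins to the surface, fell (log2FC -1.35 ± 0.26). In the Notch list 3 of 16 rose (18.75%) and 2 fell (12.5%). The ligand gene Ser had 36.1 and 28.7 scaled RPKM in Orb2B cells against 10.7 and 13.6 in background cells (log2FC 1.38 ± 0.21). The gamma-secretase subunit gene nct, needed to cleave Notch, had 1.88 and 2.48 scaled RPKM in Orb2B cells against 7.96 and 13.7 in background cells (log2FC -2.04 ± 0.29). The glypican gene dally, whose product binds several of these ligands, rose (log2FC 1.76 ± 0.23). The BMP and activin list had 2 higher and 1 lower without Orb2B replicate 1 and 2 higher and 2 lower without Orb2B replicate 2, the Wnt list had 3 higher and 2 lower without Orb2B replicate 1 and 2 higher and 2 lower without Orb2B replicate 2, and the Notch list had 1 higher and 2 lower without either Orb2B library and 3 higher and 4 lower without background replicate 1.

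Stress kinase, Hippo and cytokine genes differed in direction. In the JNK list 4 of 10 rose (40%) and 0 fell, against 17.0% and 19.9% of all genes. The TNF receptor gene wgn led the list, with 91.1 and 97.7 scaled RPKM in Orb2B cells against 28.4 and 30.5 in background cells (log2FC 1.66 ± 0.16). In the Hippo list, which restrains growth, 4 of 10 rose (40%) and 2 fell (20%), the latter near the share of all genes. Both falls were of its core, the kinase gene wts (log2FC -1.27 ± 0.20) and its cofactor gene mats (log2FC -1.88 ± 0.20). In the JAK-STAT list 3 of 11 rose (27.3%) and 4 fell (36.4%). The cytokine gene upd3 had 2.2 and 1.56 scaled RPKM in Orb2B cells against 6.44 and 8.38 in background cells (log2FC -1.73 ± 0.25). The transcription factor gene Stat92E had 10.3 and 13.7 scaled RPKM in Orb2B cells against 22.5 and 43.1 in background cells (log2FC -1.36 ± 0.31). TotM, a stress-induced secreted protein and known target of the pathway, had 0 and 0.251 scaled RPKM in Orb2B cells against 417 and 329 in background cells. Its fall, with a log2FC of -9.24 ± 0.25, was the steepest of all genes. The JNK list had 2 higher and 0 lower without either Orb2B library and 4 higher and 1 lower without background replicate 1, the Hippo list had 1 higher and 2 lower without either Orb2B library, and the JAK-STAT list had 0 higher and 3 lower without Orb2B replicate 1 and 1 higher and 3 lower without Orb2B replicate 2.

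Some genes of early mesoderm were among the steep rises in Orb2B cells. Of 8 tested mesoderm genes 4 rose (50%), 1 fell (12.5%) and 3 did not pass, against 17.0% higher and 19.9% lower of all genes. Their median log2FC was 0.85. With a mean RPKM of at least 5 required, 3 of 7 rose and 1 fell, and the median was -0.19. The bHLH factor twi, which specifies mesoderm, had 258 and 202 scaled RPKM in Orb2B cells against 14.6 and 8.68 in background cells, a log2FC of 4.28 ± 0.26. The homeobox gene btn, known from mesodermal cells of the embryo, had 417 and 331 scaled RPKM in Orb2B cells against 21.2 and 12.3 in background cells, a log2FC of 4.48 ± 0.27. The zinc-finger homeobox gene zfh1 had 562 and 461 scaled RPKM in Orb2B cells against 180.2 and 112 in background cells (log2FC 1.84 ± 0.26). Also higher was the FGF receptor gene htl. The fall was that of Mef2, the factor of muscle differentiation, with 3.91 and 4.97 scaled RPKM in Orb2B cells against 8.47 and 7.73 in background cells (log2FC -0.81 ± 0.21). Of 23 sarcomere genes 6 were tested, of which 1 rose and 3 fell. The muscle actin gene Act79B had 0.858 and 0.89 scaled RPKM in Orb2B cells against 5.94 and 6.1 in background cells (log2FC -2.25 ± 0.22), and paramyosin, Prm, fell (log2FC -1.76 ± 0.34). The adhesion gene kirre, which marks founder myoblasts in the fly, had 10.9 and 8.8 scaled RPKM in Orb2B cells against 0.209 and 0.137 in background cells, a log2FC of 3.94 ± 0.24. The call of Mef2 ended without Orb2B replicate 1 (-0.64) or without Orb2B replicate 2 (-0.95) (log2FC in brackets). The mesoderm factors list had 4 higher and 0 lower without either Orb2B library and 4 higher and 2 lower without background replicate 2, and the sarcomere proteins list had 0 higher and 2 lower without either Orb2B library and 2 higher and 3 lower without background replicate 1.

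Matrix and adhesion genes changed in both directions and by large steps. Of 13 listed basement membrane genes 3 rose (23.1%) and 2 fell (15.4%), against 17.0% and 19.9% of all genes. Outside that list, the basement membrane protein gene Glt fell (log2FC -4.23 ± 0.54). The perlecan gene trol had 23.1 and 20.8 scaled RPKM in Orb2B cells against 0.936 and 0.783 in background cells, a log2FC of 4.05 ± 0.21. The matrix metalloproteinase gene Mmp1, which cuts basement membrane, had 82.9 and 53.2 scaled RPKM in Orb2B cells against 7.35 and 7.98 in background cells (log2FC 3.04 ± 0.24). The nidogen gene Ndg had 0.0281 and 0.284 scaled RPKM in Orb2B cells against 2.58 and 2.2 in background cells (log2FC -2.16 ± 0.30). The abundant collagen-binding protein gene BM-40-SPARC (now SPARC) had 2909 and 2864 scaled RPKM in Orb2B cells against 5803 and 5155 in background cells (log2FC -0.92 ± 0.27). Among 11 integrin adhesion genes 2 rose and 4 fell. The rises were the genes of vinculin, Vinc (log2FC 1.14 ± 0.18), and of focal adhesion kinase, Fak56D (log2FC 1.10 ± 0.22), and the integrin subunit gene alphaPS5 fell (log2FC -1.86 ± 0.28). The neural adhesion gene Nrg had 17 and 19 scaled RPKM in Orb2B cells against 6.92 and 7.07 in background cells (log2FC 1.30 ± 0.19). The surface protein gene Nrt had 0.839 and 0.893 scaled RPKM in Orb2B cells against 2.45 and 2.91 in background cells (log2FC -1.21 ± 0.24). Its secreted binding partner Ama had 0.571 and 7.81 scaled RPKM in Orb2B cells against 173 and 174 in background cells (log2FC -5.87 ± 0.78). The call of BM-40-SPARC ended without Orb2B replicate 1 (-0.92) or without Orb2B replicate 2 (-0.90) (log2FC in brackets). The basement membrane list had 2 higher and 1 lower without Orb2B replicate 1, and the integrin adhesion list had 2 higher and 2 lower without Orb2B replicate 1 and 2 higher and 1 lower without Orb2B replicate 2.

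Among cytoskeletal genes an abundant tubulin gene rose, while some genes of lower level fell steeply. The main alpha-tubulin gene alphaTub84B had 3324 and 3153 scaled RPKM in Orb2B cells against 1823 and 1664 in background cells (log2FC 0.89 ± 0.25). Of 24 actin genes 5 rose (20.8%) and 3 fell (12.5%), against 17.0% and 19.9% of all genes. Of 15 tubulin and motor genes 3 rose (20%) and 0 fell. The myosin VI gene jar rose (log2FC 1.18 ± 0.22). Hem, a subunit gene of the actin-regulating WAVE complex, had 1.59 and 2.21 scaled RPKM in Orb2B cells against 7.58 and 8.4 in background cells (log2FC -1.83 ± 0.23). The fascin gene sn, whose product bundles actin, fell to 0.116 and 0.925 scaled RPKM in Orb2B cells against 28 and 42.5 in background cells (log2FC -5.22 ± 0.40). Arpc3B, which codes for a form of an Arp2/3 subunit, fell to 0.166 and 1.72 scaled RPKM in Orb2B cells against 31.6 and 28.5 in background cells (log2FC -4.65 ± 0.49). The call of alphaTub84B ended without Orb2B replicate 1 (0.87) or without Orb2B replicate 2 (0.94) (log2FC in brackets). The actin cytoskeleton list had 2 higher and 2 lower without Orb2B replicate 1 and 2 higher and 1 lower without Orb2B replicate 2, and the tubulins and motors list had 0 higher and 0 lower without Orb2B replicate 1, 1 higher and 0 lower without Orb2B replicate 2, 3 higher and 1 lower without background replicate 1 and 4 higher and 1 lower without background replicate 2.

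Several genes of the Toll pathway, which senses fungi and many bacteria, were lower in Orb2B cells, recognition and transcription factor genes among them. Of 13 tested 0 rose, 8 fell (61.5%) and 5 did not pass, against 17.0% higher and 19.9% lower of all genes. Their median log2FC was -0.99 and their highest 0.47. The glucan-recognition gene GNBP3 had 1.36 and 13 scaled RPKM in Orb2B cells against 86.9 and 71.2 in background cells (log2FC -3.98 ± 0.76). The peptidoglycan-recognition gene PGRP-SD had 12.7 and 11.7 scaled RPKM in Orb2B cells against 25.8 and 23.6 in background cells (log2FC -0.99 ± 0.18). The protease gene grass, which carries the signal in the blood, had 7.44 and 18.2 scaled RPKM in Orb2B cells against 97.2 and 104 in background cells (log2FC -3.05 ± 0.36). The ligand gene spz, cut by that cascade, had 22.3 and 53.2 scaled RPKM in Orb2B cells against 331 and 288 in background cells (log2FC -3.14 ± 0.36). The receptor gene Tl had 0.58 and 0.743 scaled RPKM in Orb2B cells against 4.87 and 8.9 in background cells (log2FC -2.62 ± 0.31). At the end of the pathway stand NF-kappaB factors, of which Dif had 2.69 and 3.84 scaled RPKM in Orb2B cells against 25.1 and 28.9 in background cells (log2FC -2.88 ± 0.22). The other, dl, had 8.25 and 11.1 scaled RPKM in Orb2B cells against 30.1 and 31.3 in background cells (log2FC -1.63 ± 0.20). In these 7 genes the groups did not overlap, as was so with Orb2B below background in 36.6% of all genes, and Orb2B replicate 2 was the nearer to background in all but PGRP-SD. The log2FC of GNBP3 was -2.54 without Orb2B replicate 1. The Toll list had 2 higher and 9 lower without background replicate 1 and 1 higher and 9 lower without background replicate 2.

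The Imd pathway, which answers many Gram-negative bacteria, had 3 rises and 7 falls among 14 genes, with a median log2FC of -0.64. These were 21.4% and 50%, against 17.0% and 19.9% of all genes. The surface receptor gene PGRP-LC had 5.96 and 9.54 scaled RPKM in Orb2B cells against 23.7 and 25.7 in background cells (log2FC -1.65 ± 0.24). The intracellular receptor gene PGRP-LE had 0.482 and 1.54 scaled RPKM in Orb2B cells against 9.03 and 3.84 in background cells (log2FC -2.18 ± 0.46). The NF-kappaB factor gene Rel had 6.36 and 9 scaled RPKM in Orb2B cells against 20.4 and 17.8 in background cells (log2FC -1.27 ± 0.22). The feedback inhibitor pirk fell as well (log2FC -1.56 ± 0.28). The kinase adaptor gene Tab2 was higher, with 61.4 and 57.1 scaled RPKM in Orb2B cells against 27.4 and 27.2 in background cells (log2FC 1.10 ± 0.16). Across the peptidoglycan-recognition family, 6 of 8 tested members fell and 0 rose. The Imd list had 1 higher and 5 lower without Orb2B replicate 1.

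Antimicrobial peptides are the effectors of both pathways. The genes listed for them had 2 rises (18.2%) and 7 falls (63.6%) among 11, against 17.0% and 19.9% of all genes. Their median log2FC of -1.80 was the lowest among lists with at least 8 tested members. Drosomycin, Drs, an antifungal peptide, had 19.7 and 57.4 scaled RPKM in Orb2B cells against 448 and 316 in background cells (log2FC -3.46 ± 0.44). Drosocin, Dro, had 17.4 and 37.1 scaled RPKM in Orb2B cells against 281 and 185 in background cells (log2FC -3.14 ± 0.35). Diptericin B, DptB, had 9.28 and 10.5 scaled RPKM in Orb2B cells against 105 and 78.6 in background cells (log2FC -3.14 ± 0.20). In these peptides the lower background library was still above the higher Orb2B library, as was so in 36.6% of all genes. Metchnikowin, Mtk, fell (log2FC -2.68 ± 0.32), as did attacin A, AttA (log2FC -1.49 ± 0.27). Cecropin genes split. CecC had 172 and 137 scaled RPKM in Orb2B cells against 58.9 and 37.1 in background cells (log2FC 1.71 ± 0.25). CecA2 had 0.733 and 0.39 scaled RPKM in Orb2B cells against 5.39 and 2.96 in background cells (log2FC -2.11 ± 0.33). The other rise on the list was that of attacin D, AttD, with 2.63 and 2.61 scaled RPKM in Orb2B cells against 1.58 and 0.661 in background cells (log2FC 1.01 ± 0.32). Anp, which codes for the antibacterial peptide andropin, is not on the list and rose. It had 11.2 and 13.8 scaled RPKM in Orb2B cells against 1.91 and 0.251 in background cells (log2FC 3.26 ± 0.49). Cecropin genes, and AttA with AttB, are close copies of each other, so the division of reads among them is uncertain. The call of AttD ended without Orb2B replicate 1 (1.02), without Orb2B replicate 2 (1.01) or without background replicate 2 (0.57) (log2FC in brackets). The antimicrobial peptides list had 1 higher and 7 lower without either Orb2B library and 1 higher and 8 lower without background replicate 2.

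Phagocytosis, clotting and other blood-borne functions shared the falls. Of 11 phagocytic and scavenger receptor genes 1 rose (9.09%) and 8 fell (72.7%), against 17.0% and 19.9% of all genes. The rise was that of drpr, the engulfment receptor for dying cells, with 86.6 and 75 scaled RPKM in Orb2B cells against 31.2 and 35.6 in background cells (log2FC 1.26 ± 0.18). The opsonin gene TepII had 19.8 and 23 scaled RPKM in Orb2B cells against 129 and 59 in background cells (log2FC -2.01 ± 0.34). In the clotting and melanization list 2 of 11 rose and 7 fell. The clot protein gene fon had 10.4 and 11.2 scaled RPKM in Orb2B cells against 36.6 and 37.2 in background cells (log2FC -1.73 ± 0.17). The melanization protease gene MP1 had 16.1 and 25.3 scaled RPKM in Orb2B cells against 63.1 and 66.8 in background cells (log2FC -1.66 ± 0.23). Spn27A, a serpin that inhibits melanization and Toll activation, rose, with 406 and 329.9 scaled RPKM in Orb2B cells against 102 and 100 in background cells (log2FC 1.85 ± 0.18). Of 12 serpin genes it was the rise, and 5 fell. Among secreted lipocalin, chitinase-like and iron proteins 0 of 12 rose and 8 fell. The chitinase-like growth factor gene Idgf2 had 27.8 and 43.4 scaled RPKM in Orb2B cells against 549 and 312 in background cells (log2FC -3.55 ± 0.31). Transferrin, Tsf1, which binds iron, fell (log2FC -1.68 ± 0.24). The serpin list had 2 higher and 4 lower without Orb2B replicate 1, 2 higher and 5 lower without Orb2B replicate 2 and 3 higher and 5 lower without background replicate 1.

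Nearly every step of glycolysis was higher in Orb2B cells. Of 12 tested enzyme genes 11 rose (91.7%) and 0 fell, against 17.0% and 19.9% of all genes, with a median log2FC of 1.68. At the entry, the hexokinase gene Hex-A had 69.9 and 57.3 scaled RPKM in Orb2B cells against 38.4 and 35.5 in background cells (log2FC 0.77 ± 0.18). Phosphofructokinase, Pfk, which commits sugar to the pathway, had 40.2 and 32.8 scaled RPKM in Orb2B cells against 8.93 and 8.14 in background cells (log2FC 2.03 ± 0.19). Triose phosphate isomerase, Tpi, had 485 and 371 scaled RPKM in Orb2B cells against 102 and 94.1 in background cells (log2FC 2.11 ± 0.20). Both glyceraldehyde phosphate dehydrogenase genes rose, Gapdh1 (log2FC 1.66 ± 0.21) and Gapdh2 (log2FC 0.67 ± 0.22). Enolase, Eno, had 739 and 556 scaled RPKM in Orb2B cells against 159.7 and 156 in background cells (log2FC 2.02 ± 0.20). Pyruvate kinase, PyK, the last step, had 361 and 319 scaled RPKM in Orb2B cells against 259 and 207 in background cells, with a log2FC of 0.55 ± 0.20 that did not pass. Lactate dehydrogenase, ImpL3 (now Ldh), had the highest log2FC of the list and the widest gap within the Orb2B pair, with 213 and 76.5 scaled RPKM in Orb2B cells against 19.5 and 13.9 in background cells (log2FC 2.92 ± 0.43). In all 12 genes both Orb2B libraries lay above both background libraries, as they did in 36.5% of all genes, and replicate 1 was the higher of the Orb2B pair. The call of Hex-A ended without Orb2B replicate 1 (0.64), and that of Gapdh2 without Orb2B replicate 1 (0.58), without Orb2B replicate 2 (0.79) or without background replicate 1 (0.42) (log2FC in brackets). PyK passed, as higher in Orb2B cells, without background replicate 1 (log2FC 0.70).

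**Figure D5:**
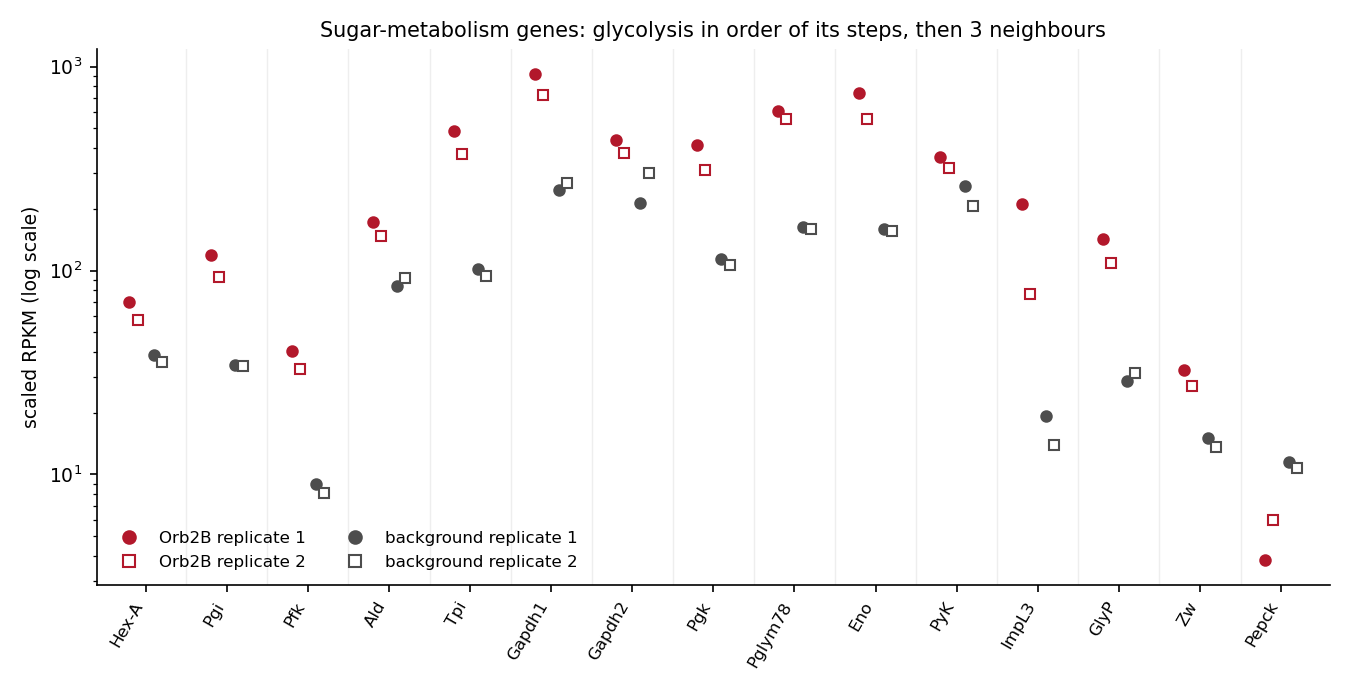
Scaled RPKM (vertical log axis) in each library for the glycolytic genes in order of the steps, and for glycogen phosphorylase (GlyP), glucose 6-phosphate dehydrogenase (Zw) and Pepck. Red symbols are Orb2B and grey symbols background libraries, filled circles for replicate 1 and open squares for replicate 2. All glycolytic genes are higher in both Orb2B libraries, PyK with the lowest log2FC of 0.55, and Pepck is lower.

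Sugar pathways joined to glycolysis changed with it in part. Glycogen phosphorylase, GlyP, which frees stored sugar, had 142 and 109 scaled RPKM in Orb2B cells against 28.8 and 31.3 in background cells (log2FC 2.04 ± 0.19). The trehalose transporter gene Tret1-1 rose (log2FC 1.21 ± 0.23). Pyruvate carboxylase, CG1516 (now PCB), rose as well (log2FC 1.17 ± 0.21). Pepck, an enzyme of gluconeogenesis, had 3.79 and 5.95 scaled RPKM in Orb2B cells against 11.5 and 10.7 in background cells (log2FC -1.14 ± 0.24). In the pentose phosphate pathway 3 of 6 rose, among them its first enzyme gene Zw, with 32.4 and 27.3 scaled RPKM in Orb2B cells against 15 and 13.6 in background cells (log2FC 1.03 ± 0.18). In the citric acid cycle 5 of 18 rose (27.8%) and 3 fell (16.7%), against 17.0% and 19.9% of all genes. The succinyl-CoA ligase subunit genes moved apart, Scsalpha rising (log2FC 1.01 ± 0.17) and skap falling (log2FC -1.25 ± 0.18). The isocitrate dehydrogenase gene Idh had 97.8 and 103 scaled RPKM in Orb2B cells against 217 and 218 in background cells (log2FC -1.11 ± 0.16). The call of Pepck ended without Orb2B replicate 1 (-0.84), and that of Zw without Orb2B replicate 1 (0.92) (log2FC in brackets). The pentose phosphate list had 0 higher and 0 lower without Orb2B replicate 1, and the citric acid cycle list had 2 higher and 2 lower without Orb2B replicate 1, 3 higher and 2 lower without Orb2B replicate 2 and 8 higher and 5 lower without background replicate 1.

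Genes of respiratory complex I and of the mitochondrial ribosome rose more often than they fell, while most cytochrome oxidase genes did not pass. Of 31 genes of respiratory complex I, which feeds electrons into the chain, 17 rose (54.8%) and 2 fell (6.45%), against 17.0% and 19.9% of all genes, with a median log2FC of 0.69. The subunit gene CG6463 (now ND-13B) had 470.1 and 419 scaled RPKM in Orb2B cells against 178 and 123 in background cells (log2FC 1.58 ± 0.22). CG6020 (now ND-39) had 481 and 387 scaled RPKM in Orb2B cells against 182 and 154 in background cells (log2FC 1.36 ± 0.20). Against this trend CG34439 (now ND-MWFE) had 14.9 and 18 scaled RPKM in Orb2B cells against 54.5 and 39.3 in background cells (log2FC -1.47 ± 0.21). Cytochrome oxidase passes the electrons to oxygen, and of 9 of its genes, picked by their symbols, 1 rose (11.1%) and 0 fell. The rise was that of the subunit gene CoVa, with 1574 and 1399 scaled RPKM in Orb2B cells against 846 and 726 in background cells (log2FC 0.92 ± 0.22). The ATP synthase list had 4 rises and 1 fall among 12, with the subunit gene Oscp higher (log2FC 1.18 ± 0.18). Of 73 mitochondrial ribosomal protein genes 24 rose (32.9%) and 6 fell (8.22%). Shares of calls varied with level among all genes. From 20 to 100 scaled RPKM 24.1% rose and 15.4% fell, and above 100 25.5% rose and 11.8% fell. The part of level in the shares of these lists was not tested. The 3 mitochondrial ribosomal protein genes with the smallest p-values were falls. The first, mRpL34, had 8.03 and 14.8 scaled RPKM in Orb2B cells against 116 and 87.5 in background cells (log2FC -3.15 ± 0.29), and mRpL23 (log2FC -1.57 ± 0.21) and mRpL32 (log2FC -2.56 ± 0.36) followed. The call of CoVa ended without Orb2B replicate 1 (0.85) or without Orb2B replicate 2 (1.02) (log2FC in brackets). The complex I list had 8 higher and 1 lower without Orb2B replicate 1, 9 higher and 1 lower without Orb2B replicate 2 and 27 higher and 2 lower without background replicate 1, the cytochrome oxidase list had 0 higher and 0 lower without either Orb2B library, 4 higher and 0 lower without background replicate 1 and 1 higher and 1 lower without background replicate 2, the ATP synthase list had 2 higher and 1 lower without either Orb2B library and 6 higher and 2 lower without background replicate 1, and the mitochondrial ribosomal protein list had 9 higher and 4 lower without Orb2B replicate 1, 11 higher and 4 lower without Orb2B replicate 2 and 43 higher and 7 lower without background replicate 1.

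Lipid, one-carbon and nucleotide genes held single large changes. The perilipin gene Lsd-1, whose product coats lipid droplets, had 0.77 and 0.991 scaled RPKM in Orb2B cells against 11.3 and 12.1 in background cells (log2FC -3.15 ± 0.22). The lipoprotein receptor gene LpR2 had 0.888 and 0.548 scaled RPKM in Orb2B cells against 6.55 and 11.8 in background cells (log2FC -2.95 ± 0.32). Fatty acid synthase, CG3523, had 172 and 145 scaled RPKM in Orb2B cells against 74.7 and 77.6 in background cells (log2FC 1.05 ± 0.17). In the Npc2 family of sterol-binding proteins, Npc2a (log2FC 1.19 ± 0.21), Npc2g (log2FC 3.06 ± 0.21) and Npc2h (log2FC 3.41 ± 0.37) rose, Npc2g having 62.3 and 65.6 scaled RPKM in Orb2B cells against 8.66 and 6.02 in background cells. Serine synthesis changed unevenly. The aminotransferase gene CG11899 had 2.17 and 2.88 scaled RPKM in Orb2B cells against 16.9 and 12.9 in background cells (log2FC -2.35 ± 0.23). The phosphoserine phosphatase gene aay, the next step, had 12 and 9.58 scaled RPKM in Orb2B cells against 3.23 and 2.81 in background cells (log2FC 1.68 ± 0.22). Adenosylhomocysteinase, Ahcy13, which recycles the product of methylation, had 877 and 735 scaled RPKM in Orb2B cells against 255 and 228 in background cells (log2FC 1.73 ± 0.20). Purine synthesis genes split, ade5 falling (log2FC -1.43 ± 0.22) and ras, which codes for inosine monophosphate dehydrogenase, rising (log2FC 1.07 ± 0.18). The nucleoside diphosphate kinase gene awd had the largest rise of all called genes in mean level, with 6990.5 and 7028 scaled RPKM in Orb2B cells against 3795 and 2666 in background cells (log2FC 1.14 ± 0.31). The call of awd ended without Orb2B replicate 1 (1.16), without Orb2B replicate 2 (1.14) or without background replicate 2 (0.87) (log2FC in brackets).

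Families that detoxify foreign compounds were lower. Of 25 glutathione S-transferase genes 2 rose (8%) and 13 fell (52%), against 17.0% and 19.9% of all genes, with a median log2FC of -1.07. CG6776 (now GstO3) had 15.6 and 20.5 scaled RPKM in Orb2B cells against 181 and 136 in background cells (log2FC -3.10 ± 0.22). GstD7 (log2FC -2.62 ± 0.21) and GstE6 (log2FC -2.53 ± 0.24) fell by similar amounts. Of 20 cytochrome P450 genes 1 rose and 9 fell. Cyp6a17 had 0.38 and 1.75 scaled RPKM in Orb2B cells against 9.77 and 11.7 in background cells (log2FC -2.99 ± 0.41). The rise was that of Cyp9c1, with 121 and 100.1 scaled RPKM in Orb2B cells against 53 and 34.8 in background cells (log2FC 1.35 ± 0.23). Among 16 redox genes 4 rose and 4 fell, 25% each against 17.0% and 19.9% of all genes. Catalase, Cat, was among the falls, with 53 and 62.5 scaled RPKM in Orb2B cells against 128 and 147 in background cells (log2FC -1.25 ± 0.18). The glutathione S-transferase list had 0 higher and 15 lower without Orb2B replicate 1, 0 higher and 10 lower without Orb2B replicate 2 and 1 higher and 13 lower without background replicate 2, the cytochrome P450 list had 2 higher and 9 lower without Orb2B replicate 1, 2 higher and 8 lower without background replicate 1 and 2 higher and 8 lower without background replicate 2, and the redox defence list had 0 higher and 1 lower without Orb2B replicate 1, 2 higher and 1 lower without Orb2B replicate 2 and 7 higher and 4 lower without background replicate 1.

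Copper was given to both groups, and the metallothionein genes named here did not pass. MtnA had the highest mean level of all genes, with 68430.0 and 44363 scaled RPKM in Orb2B cells against 56759 and 37720.0 in background cells, and did not pass. It made up 8.01% and 6.09% of the summed RPKM of the Orb2B libraries and 6.40% and 5.27% of that of the background libraries. MtnB had 279.7 and 94 scaled RPKM in Orb2B cells against 334 and 224 in background cells and did not pass. MtnD had 1336 and 476 scaled RPKM in Orb2B cells against 1568 and 990.3 in background cells and did not pass. In all 3 replicate 1 was the higher within each group. MtnB passed, as lower in Orb2B cells, without Orb2B replicate 1 (log2FC -1.52). MtnD passed, as lower in Orb2B cells, without Orb2B replicate 1 (log2FC -1.37).

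Stress and turnover genes followed no common direction. The small heat shock protein gene Hsp26 had 212 and 81 scaled RPKM in Orb2B cells against 29.5 and 19.6 in background cells (log2FC 2.42 ± 0.42). In the integrated stress response, which slows translation, 3 of 11 genes rose and 3 fell, 27.3% each against 17.0% and 19.9% of all genes. The kinase gene Gcn2, which senses amino acid shortage, had 2.29 and 2.56 scaled RPKM in Orb2B cells against 6.44 and 7.35 in background cells (log2FC -1.34 ± 0.21). In cell death, 2 of 8 rose and 4 fell. The death activator gene rpr had 0.153 and 1.04 scaled RPKM in Orb2B cells against 15.6 and 10.5 in background cells (log2FC -3.73 ± 0.41). The effector caspase gene Ice had 23 and 21.2 scaled RPKM in Orb2B cells against 41.2 and 71.6 in background cells (log2FC -1.28 ± 0.26). The Bcl-2 family gene debcl was higher, with 208 and 156 scaled RPKM in Orb2B cells against 59.5 and 73.9 in background cells (log2FC 1.44 ± 0.21). Of 12 lysosomal genes 1 rose and 4 fell. The cathepsin gene CG10992 (now CtsB) had 85.2 and 104 scaled RPKM in Orb2B cells against 458 and 458 in background cells (log2FC -2.28 ± 0.18). Palmitoyl-protein thioesterase, Ppt1, fell too (log2FC -1.90 ± 0.18). Atg8a, which codes for a coat protein of autophagosomes, fell (log2FC -1.23 ± 0.19). The integrated stress response list had 1 higher and 3 lower without Orb2B replicate 1, the cell death machinery list had 1 higher and 3 lower without Orb2B replicate 1, 1 higher and 2 lower without Orb2B replicate 2 and 1 higher and 4 lower without background replicate 2, and the lysosomal list had 2 higher and 4 lower without background replicate 1 and 2 higher and 4 lower without background replicate 2.

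Partners of CPEB proteins and other mRNA regulators lie nearest to the known work of Orb2. With orb2 itself counted, 6 of 21 rose (28.6%) and 3 fell (14.3%), against 17.0% and 19.9% of all genes. The sister gene orb stayed below the minimum, with 0.0829 and 0.0577 scaled RPKM in Orb2B cells against 0.146 and 0.153 in background cells. The repressor gene pum, whose product binds mRNA tails, had 80.3 and 76.6 scaled RPKM in Orb2B cells against 41.4 and 30.3 in background cells (log2FC 1.14 ± 0.20). The poly(A)-binding protein gene pAbp had 1009 and 956 scaled RPKM in Orb2B cells against 490.5 and 559 in background cells (log2FC 0.91 ± 0.20). The repressor gene cup, whose product blocks the cap-binding factor, had 7.82 and 11.3 scaled RPKM in Orb2B cells against 23 and 23.3 in background cells (log2FC -1.25 ± 0.22). The helicase gene me31B, a component of mRNA granules, had 4.91 and 7.47 scaled RPKM in Orb2B cells against 11 and 19.3 in background cells (log2FC -1.20 ± 0.31). In RNA silencing 0 of 13 rose and 5 fell. The helicase gene armi of the piRNA pathway had 0.832 and 1.76 scaled RPKM in Orb2B cells against 4.69 and 4.38 in background cells (log2FC -1.54 ± 0.30). Arc1, whose product forms capsids that carry RNA between cells, had 2359 and 1226 scaled RPKM in Orb2B cells against 219 and 121 in background cells (log2FC 3.38 ± 0.38). The call of pAbp ended without Orb2B replicate 1 (0.88) or without Orb2B replicate 2 (0.95), and that of me31B without Orb2B replicate 1 (-0.91) or without background replicate 2 (-0.82) (log2FC in brackets). The mRNA regulator list had 2 higher and 1 lower without Orb2B replicate 1 and 2 higher and 2 lower without Orb2B replicate 2, and the RNA silencing list had 0 higher and 3 lower without Orb2B replicate 1 and 2 higher and 4 lower without background replicate 2.

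Most genes for making and degrading proteins did not pass, and the shares that fell were near or under the 19.9% of all genes. Of 83 cytoplasmic ribosomal protein genes 1 rose and 10 fell (12.0%), with a median log2FC of -0.20 that was 0.053 without background replicate 1. Under quantile normalization 9 of them were higher and 18 lower. RpS15Aa had 530.2 and 545 scaled RPKM in Orb2B cells against 1541 and 1608 in background cells (log2FC -1.55 ± 0.20). Of 20 aminoacyl-tRNA synthetase genes 2 rose and 4 fell, among them Aats-arg (log2FC -1.40 ± 0.20). Of 34 proteasome genes 1 rose and 8 fell (23.5%). The rise was that of Prosalpha5, with 216 and 224 scaled RPKM in Orb2B cells against 112 and 87.7 in background cells (log2FC 1.14 ± 0.19). The ribosomal protein list had 0 higher and 4 lower without either Orb2B library, 4 higher and 10 lower without background replicate 1 and 0 higher and 19 lower without background replicate 2, the aminoacyl-tRNA synthetases list had 1 higher and 2 lower without either Orb2B library, and the proteasome subunit list had 1 higher and 5 lower without Orb2B replicate 1 and 6 higher and 7 lower without background replicate 1.

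DNA replication and cell cycle genes had 0 rises and 7 falls among 26, with a median log2FC of -0.39. The kinase gene cdc2c (now Cdk2), which drives the start of DNA synthesis, had 3.2 and 4.88 scaled RPKM in Orb2B cells against 25.4 and 15.7 in background cells (log2FC -2.20 ± 0.29). The mitotic kinase gene cdc2 (now Cdk1) had 2.35 and 5.06 scaled RPKM in Orb2B cells against 12.2 and 12.3 in background cells (log2FC -1.68 ± 0.31). The spindle kinase gene aur had 5.89 and 5.99 scaled RPKM in Orb2B cells against 15.8 and 18 in background cells (log2FC -1.43 ± 0.19). The replication helicase subunit gene Mcm7 had 11.7 and 17.1 scaled RPKM in Orb2B cells against 29.2 and 41.8 in background cells (log2FC -1.28 ± 0.25). In these genes Orb2B replicate 2 was the higher of its pair and still below both background libraries. Both Orb2B libraries lay below both background libraries in 36.6% of all genes. The mitotic cyclin gene CycB had 32.9 and 38.4 scaled RPKM in Orb2B cells against 42.6 and 63.3 in background cells and did not pass, with a log2FC of -0.54 ± 0.22 that was -0.27 without background replicate 2. The mitotic phosphatase gene stg had 153 and 239 scaled RPKM in Orb2B cells against 151 and 153 in background cells and did not pass. Of 18 DNA damage response genes 2 rose (11.1%) and 3 fell (16.7%), against 17.0% and 19.9% of all genes. Irbp (Ku70) was among the rises (log2FC 1.23 ± 0.22). CycB passed, as lower in Orb2B cells, without background replicate 1 (log2FC -0.83). The DNA replication and cell cycle list had 0 higher and 4 lower without Orb2B replicate 1 and 0 higher and 12 lower without background replicate 1, and the DNA damage response list had 1 higher and 1 lower without Orb2B replicate 1, 2 higher and 1 lower without Orb2B replicate 2 and 4 higher and 3 lower without background replicate 1.

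The genes ranked 11 to 25 by log2FC in either direction had varied roles. The homeobox gene CG7056 (now HHEX) had 199 and 139 scaled RPKM in Orb2B cells against 18.2 and 11.5 in background cells (log2FC 3.47 ± 0.26). The secreted metalloproteinase gene CG4096 (now AdamTS-B) had 27.2 and 19.1 scaled RPKM in Orb2B cells against 1.6 and 1.31 in background cells (log2FC 3.58 ± 0.24). The corepressor gene nvy had 33.1 and 26.4 scaled RPKM in Orb2B cells against 2.15 and 2.64 in background cells (log2FC 3.38 ± 0.21). The hormone receptor gene ETHR (log2FC 3.18 ± 0.27), the kinase gene PKD (log2FC 3.13 ± 0.22) and Anp, which codes for the antibacterial peptide andropin (log2FC 3.26 ± 0.49), also rose. Among the falls, the glutactin gene Glt, which codes for a basement membrane protein, had 9.9 and 41.6 scaled RPKM in Orb2B cells against 397 and 387 in background cells (log2FC -4.23 ± 0.54). The spondin gene mspo had 0.103 and 0.939 scaled RPKM in Orb2B cells against 24.6 and 31.9 in background cells (log2FC -4.94 ± 0.39). The serine protease gene Sp212 had 0.272 and 0.434 scaled RPKM in Orb2B cells against 27.8 and 22.7 in background cells (log2FC -4.91 ± 0.23). The neighbouring neprilysin-like genes CG14526 (now Nepl21) (log2FC -4.57 ± 0.34) and CG14527 (now Nepl20) (log2FC -4.27 ± 0.33) fell together. The largest fall in mean level among called genes was that of Nplp2, a neuropeptide-like precursor gene, with 1939 and 2073 scaled RPKM in Orb2B cells against 7932 and 11985 in background cells (log2FC -2.28 ± 0.32).

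In 25 genes both libraries of one group were under 0.5 scaled RPKM and both of the other at 5 or more. Of these, 6 were present in Orb2B cells: CG42857, CG14397, kirre, CG33080, stnA and stnB. The endocytic genes stnA and stnB overlap and have the same values in every library, 6.9 and 5.86 scaled RPKM in Orb2B cells against 0.307 and 0.434 in background cells, so they are 1 measurement. CG33080 had 7.14 and 8.5 scaled RPKM in Orb2B cells against 0.499 and 0.292 in background cells. The gene CG14397 had 11.3 and 10.7 scaled RPKM in Orb2B cells against 0 and 0 in background cells, so that it was listed at 0 in both background libraries. The other 19 genes were present in background cells, among them TotM, Sp212, proPO-A1, Sr-CI and Hml. The channel-like gene bib had 0.0398 and 0.0741 scaled RPKM in Orb2B cells against 10 and 9 in background cells (log2FC -4.16 ± 0.24). The pherokine gene Phk-3 had 0.12 and 0.384 scaled RPKM in Orb2B cells against 13.8 and 7.9 in background cells (log2FC -3.89 ± 0.33).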

How the data were processed

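Poly(A) RNA of S2 cells was sequenced, and the authors deposited 1 RPKM value per gene and library. Per the labels, the values use build dm3. Per the submitters' processing notes, CASAVA 1.9.1, Bowtie, cutadapt and Novoalign were used somewhere in the series, and which of them made these values is not given in the sources used here. RPKM are not counts, so no count test was run. Libraries were scaled by the median ratio to the gene's geometric mean. limma 3.58.1 (R 4.3.3; trend, 2 residual degrees of freedom) was fitted to the 7072 genes whose RPKM averaged at least 1, on log2(scaled RPKM + 0.5), after a test on simulated data, and p-values were adjusted over all of them. Replicate numbers were not used for pairing in this fit. The reason was that deviations from the group means of same-numbered libraries correlated at 0.05 across genes. That value does not exclude pairing for some sets of genes. The members and all gene lists were chosen with earlier results of these data known, so lists are described by counts and medians with no set test. Named genes were list members, with those of smallest p first and others as the pathway needs them, ranks 1 to 25 by fold, the 10 largest changes in mean, the 10 widest gaps within a pair and genes present in 1 group. Current symbols came from a reference table that held 6599 of the 7072 identifiers. For head samples the authors deposited FPKM, per the file headers; those values were not used, and only their dm3 gene positions were taken. Crosslinking samples were left out as other material.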

Additional observations from a re-analysis of the deposited data

How the results depend on the processing

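Of the 2611 genes called, between 2127 (quantile normalization) and 2610 (a pseudocount of 1) kept their call and direction at the same threshold. This range covers the other scalings, pseudocounts and variance settings tried. No called gene that was still tested changed sign under any of the 15 alternatives. The replicate block, variance and threshold settings leave the fold change as it is, so no sign could change there. Dropping the filter on low values moved more calls. With no filter, 1918 were kept and 982 genes were called higher and 1344 lower among 11491 tested. With a mean RPKM of at least 5 required, called genes below that level were no longer tested and could not keep a call. Then 1833 were kept, and 885 were called higher and 1036 lower among 5573 tested. Stricter rules lowered the counts. With a log2 fold change of at least 1 required, 1395 genes were called, 521 higher and 874 lower, and at an adjusted p under 0.01 there were 1349, 556 higher and 793 lower. With 1 library left out, 1348 to 3308 genes were called, 522 to 1633 higher and 826 to 1675 lower, the lowest counts without Orb2B replicate 1 and the highest without background replicate 1. The cause was not tested. With the replicate number as a block, 1429 genes were higher and 1611 lower. Whether same-numbered libraries belong together is unknown. Their deviations from the group means correlated at 0.05 across genes, which cannot settle it for sets of genes. In each of the 10 genes of highest mean level, replicate 2 lay below replicate 1 in both groups. Quantile normalization moved the median of all genes to 0.07 and gave 1282 higher and 1173 lower, and RPKM as deposited gave 1025 and 1415. Of the 190 named genes called, 169 kept the call with any 1 library left out. Genes that were not called changed sign: under quantile normalization MtnA had a log2 fold change of 0.00 and Pvr -0.064. With 1 library left out, MtnA ranged between -0.057 and 0.57, MtnB between -1.52 and 0.041, MtnD between -1.37 and 0.11, and Pxn between -1.87 and 0.13, and MtnA had -0.046 without Orb2B replicate 1. Depth in reads is unknown, so no interval from counting could be given, and a gene at 0 is known only as listed at 0.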

Other observations

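Chromosome arms differed in their share of calls. On the X, 22.9% of 1224 tested genes rose and 16.2% fell, with a median log2 fold change of 0.15. On 3R, 13.1% of 1677 genes rose and 22.7% fell, with a median of -0.09. On the small chromosome 4, 13 of 35 genes rose and 4 fell, with a median of 0.63. In build dm3, 42 runs of at least 3 neighbouring tested genes were all higher and 62 all lower. The number of such runs that the overall shares of calls would give was not worked out, and neighbours that overlap can share reads. The longest higher run, on 2L from 819964 to 869857, held 8 genes from Clp to dbe with a median log2 fold change of 1.25, among them dock, which codes for an adaptor of guidance receptors. The 6 genes GstE2, GstE3, GstE6, GstE7, GstE8 and GstE9, on 2R from 14286998 to 14297340, formed a lower run with a median of -1.99. A run on 2L from 2770884 to 2847197 held CG15399, daw, CG18557 and CG3117 and had a median of -2.81.

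Other families are given as values. Of 11 tetraspanin genes, which code for membrane organisers, 5 rose (45.5%) and 4 fell (36.4%), against 17.0% and 19.9% of all genes. Their median log2 fold change was -0.51. None of 8 kinesin-like genes was called. Of 2361 tested genes known only by a CG number, 370 rose (15.7%) and 522 fell (22.1%).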
